A study of Mus musculus with 109 samples.

Results

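The CXC chemokines of the mouse retina were followed here through 8 genes, Cxcl1, Cxcl2, Cxcl5, Cxcl9, Cxcl10, Cxcl12, Cxcl13 and Cxcl16, chosen by name from a table of 37315 genes and measured in every treatment, day and genotype. The samples were whole retinas of 64 mice (54 female and 55 male retinas), 2 to 4 months old, and polyadenylated RNA was sequenced after an intravitreal injection of TNF, IL1A or both cytokines together (IL1A+TNF), or of PBS as the control. The other eye of a treated mouse received PBS, and 44 mice contributed 1 treated and 1 PBS eye. The wild-type (WT) mice were C57BL/6J. In batch 1, all WT, there were 31 PBS, 8 TNF, 9 IL1A and 10 IL1A+TNF retinas at day 2, 7 PBS and 6 TNF retinas at day 14, and 6 PBS and 9 TNF retinas at day 35. Batch 2 held day 2 retinas only: 5 WT PBS, 6 WT IL1A+TNF, 6 Sarm1-/- PBS and 6 Sarm1-/- IL1A+TNF. Sarm1-/- mice lack a working copy of Sarm1, which encodes an NADase that drives axon degeneration, and all Sarm1-/- retinas were in batch 2. A retina is 1 replicate, the mouse is its block, and every PBS eye had itself been injected, so there was no eye without an injection.

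CXC chemokines are small secreted proteins that set the path of leukocytes through G protein-coupled receptors. Cxcl1, Cxcl2 and Cxcl5 act on Cxcr2 and draw neutrophils, Cxcl9 and Cxcl10 act on Cxcr3 and draw activated T cells and NK cells, Cxcl12 acts on Cxcr4 and Ackr3 and is made constitutively by stromal and endothelial cells, Cxcl13 acts on Cxcr5 and draws B cells, and Cxcl16 is a membrane-bound ligand of Cxcr6 that is shed by Adam10 and Adam17. The first group and Cxcl10 are classical targets of NF-kappaB, which both IL1 and TNF receptors engage, and Cxcl9 and Cxcl10 are also classical interferon targets.

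Of the 8 genes, 6 lie on chromosome 5 (GRCm38, GENCODE M21 positions). Cxcl5 (chr5:90759360-90761624), Cxcl1 (chr5:90891241-90893115) and Cxcl2 (chr5:90903871-90905938) lie on the plus strand within 147 kb, with 10.8 kb between Cxcl1 and Cxcl2. Cxcl9 (chr5:92321347-92328079) and Cxcl10 (chr5:92346638-92348889) lie on the minus strand, and the 2 genes together span 27.5 kb. Cxcl13 (chr5:95956951-95961068, plus strand) is the sixth, while Cxcl12 is at chr6:117168535-117181367 (plus strand) and Cxcl16 at chr11:70453983-70459984 (minus strand). Exons of Cxcl10 overlap those of Art3, and exons of Cxcl16 overlap those of Zmynd15, both on the opposite strand. Whether reads were counted by strand is not given in the sources used here, so reads of these pairs cannot be told apart. The promoters of the 3 members whose first 250 upstream bases held a motif searched for are shown, taken 5′ to 3′ on the gene's own strand from RefSeq (GRCm38.p6), with the matches in capitals. The starts are those of RefSeq, which differ slightly from those of GENCODE. The sequences are Cxcl1 (chr5:90890995-90891244, plus), Cxcl2 (chr5:90903649-90903898, plus) and Cxcl10 (chr5:92348890-92349139, minus).
Cxcl1: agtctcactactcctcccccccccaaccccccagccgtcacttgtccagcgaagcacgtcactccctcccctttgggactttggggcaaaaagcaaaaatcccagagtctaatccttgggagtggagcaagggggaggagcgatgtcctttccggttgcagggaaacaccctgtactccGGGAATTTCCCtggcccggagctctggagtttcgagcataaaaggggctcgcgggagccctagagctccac
Cxcl2: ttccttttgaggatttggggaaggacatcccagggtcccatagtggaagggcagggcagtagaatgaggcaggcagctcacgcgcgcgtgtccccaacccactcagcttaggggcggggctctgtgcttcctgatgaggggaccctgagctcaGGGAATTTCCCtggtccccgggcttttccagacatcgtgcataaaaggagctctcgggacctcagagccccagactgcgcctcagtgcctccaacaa
Cxcl10: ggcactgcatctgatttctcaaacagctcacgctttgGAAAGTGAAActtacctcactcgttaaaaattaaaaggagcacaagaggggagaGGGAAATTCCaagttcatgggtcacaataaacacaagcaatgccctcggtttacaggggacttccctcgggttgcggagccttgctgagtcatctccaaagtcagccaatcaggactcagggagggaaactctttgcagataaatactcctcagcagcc
Promoters were matched by symbol for 6 of the 8 members, all but Cxcl5 and Cxcl16. The letters GGGA, any 2 bases and TTCC, a form of the NF-kappaB site, were searched on both strands. They matched at positions -71 and -70 from the start of Cxcl1 and at -97 and -96 from that of Cxcl2, in each case as the overlapping pair GGGAATTTCC and GGAATTTCCC. In Cxcl10 they matched once, as GGGAAATTCC at -159. The letters GAAA, any 2 bases and GAAA, a form of the interferon-stimulated response element, were searched the same way and matched only in Cxcl10, as GAAAGTGAAA at -213, which overlapped no match of the first motif. The windows of Cxcl9, Cxcl12 and Cxcl13 held neither set of letters. Of all 32851 promoters of this length, 397 (1.21%) held the first motif and 978 (2.98%) the second.

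The members spanned 3 ranges of abundance. Levels are in CPM (counts scaled to the library's total count) and are compared between genes only per kilobase of exon. In WT PBS retinas of day 2 in batch 1, the medians were 4.11 CPM per kilobase for Cxcl12, 4.07 for Cxcl16, 1.01 for Cxcl13, 0.518 for Cxcl10, 0.452 for Cxcl5, 0.151 for Cxcl1 and 0.121 for Cxcl2, while Cxcl9 was at 0 in 21 of the 31 retinas. Over all retinas of the series, Cxcl12 ran from 20.6 through a median of 33.9 to 60.9 CPM and Cxcl16 from 7.77 through 12.6 to 21.6 CPM. Both were detected in every retina, with less than a 3-fold range between the lowest and the highest. Cxcl13 was also detected in every retina (0.143, 1.17 and 2.58 CPM for the lowest, median and highest).

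The other 5 members were low and uneven. Cxcl1 ran from 0 through a median of 0.444 to 21.3 CPM and was at 0 in 10 retinas, and Cxcl2 ran from 0 through 0.185 to 38.3 CPM and was at 0 in 26. Cxcl5 had a median of 0.761 CPM and a highest level of 16.9 CPM, with 13 retinas at 0, and Cxcl10 had a median of 0.821 CPM and a highest level of 5.74 CPM, with 2 retinas at 0. Cxcl9 was at 0 in 61 retinas, and its highest count in any retina was 18. It passed the filter on low counts only in the fits that joined both batches, and a count of 0 in 1 retina allows up to 3 counts, which is 0.1 CPM at the lowest depth and 0.0379 CPM at the highest.

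Across the 12 groups the members had different orders. In batch 1 the medians of Cxcl1 ran from PBS at day 35 (0.0266 CPM) and TNF at day 35 (0.0269) through TNF and PBS at day 14 (0.0381 and 0.0651) to PBS, TNF, IL1A+TNF and IL1A at day 2 (0.282, 0.35, 1.32 and 1.84 CPM). Neighbours in this order overlapped, except that every TNF retina of day 2 was below every IL1A+TNF retina. In batch 2 the order was WT PBS (0.574), Sarm1-/- PBS (1.59), WT IL1A+TNF (2.39) and Sarm1-/- IL1A+TNF (6.16 CPM). For Cxcl16 the medians of batch 1 ran from 8.88 CPM (PBS, day 35) and 9.24 CPM (TNF, day 35) to 15.7 CPM after IL1A and IL1A+TNF at day 2, and those of batch 2 from 13 CPM (WT PBS) to 17.8 CPM (WT IL1A+TNF). For Cxcl12 the medians of batch 1 lay between 30.0 and 35.1 CPM and those of batch 2 between 36.8 and 44.7 CPM, and every pair of neighbours overlapped.

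**Figure D1:**
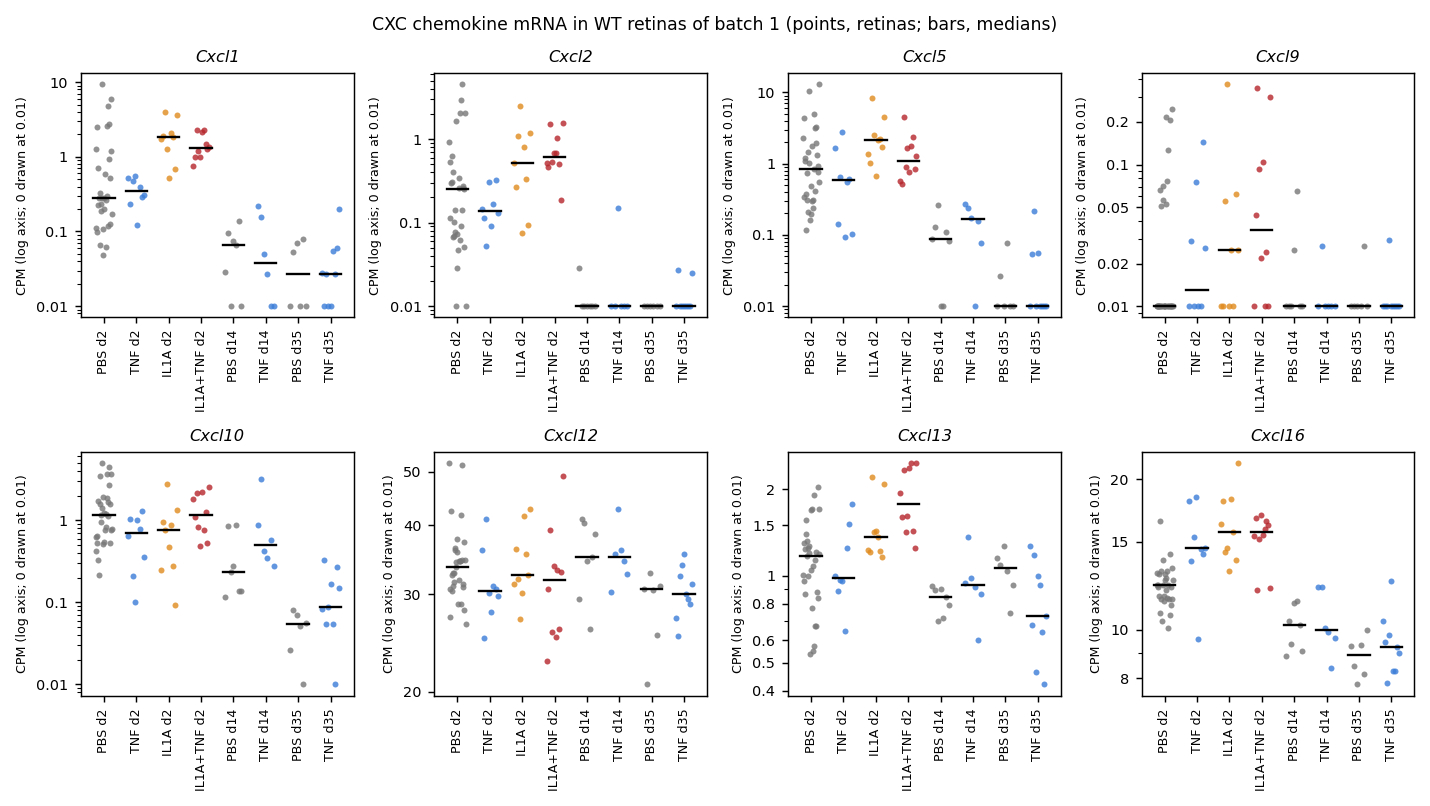
Level of the 8 CXC chemokines in WT retinas of batch 1, in CPM on a log axis with a count of 0 drawn at 0.01, by treatment and day. Each point is a retina and each bar is the group's median. Cxcl1, Cxcl2, Cxcl5 and Cxcl10 were spread over more than 10-fold among PBS retinas of day 2, and Cxcl12 and Cxcl16 were not.

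Total counts were 30.0 to 45.8 M in batch 1 and 42.9 to 79.1 M in batch 2, so 1 count is worth 0.0333 CPM at the lowest depth and 0.0126 CPM at the highest. The summed level of rod markers was between 21200 and 52700 CPM in every retina, as whole retina should give. Lens markers, most of them crystallin genes, were between 0.133 and 5510 CPM, and whether their RNA came from lens tissue was not tested. Markers of blood cells moved with several results below, and their values stand beside those results. In bulk RNA, fewer cells of a type and less RNA per cell cannot be told apart.

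The first question was which members changed 2 days after IL1A+TNF. Of the 7 members that could be tested, 4 rose and none fell: Cxcl1, Cxcl2, Cxcl13 and Cxcl16, at a Benjamini-Hochberg adjusted p (FDR) under 0.05 in limma. In this comparison 50.4% of the 19548 genes tested were called, so the members' 4 of 7 is near the background. The median log2 fold change of the 7 was 0.31, against -0.02 for all genes tested.

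Cxcl1, a neutrophil attractant, was measured at 2.29, 1.36, 2.26, 0.983, 0.742, 1.19, 1.00, 1.5, 1.29 and 2.18 CPM in the 10 IL1A+TNF retinas. The 31 PBS retinas ran from 0.0487 through a median of 0.282 to 9.34 CPM. All 10 treated retinas were above the PBS median, but the groups overlapped, and 6 PBS retinas were above every treated retina. The ratio of the medians was 4.69, and the fitted log2 fold change was 1.52 (SE 0.42, 95% interval 0.69 to 2.36, FDR = 0.00174), a fold of 2.87. Cxcl2, its close relative, had a treated range of 0.185 to 1.55 CPM (median 0.606) against 0 to 4.53 CPM (median 0.251) in PBS retinas. For Cxcl2, 9 of 10 treated retinas were above the PBS median and 5 PBS retinas were above every treated one, with a log2 fold change of 1.35 (SE 0.49, FDR = 0.018). Both calls were lost in edgeR, with log2 fold changes of 0.21 for Cxcl1 (FDR = 0.764) and 0.20 for Cxcl2 (FDR = 0.792), and in DESeq2 (0.23 and 0.21). With mouse as a fixed block in the weighted limma fit, both turned negative, at -0.54 (FDR = 0.506) and -0.47 (FDR = 0.604). That fit kept only mice with 1 treated and 1 PBS eye, so its set of retinas differed as well as its block. The unweighted log2 differences between the eyes of a mouse were not negative on average. Their medians were 1.42 for Cxcl1 and 0.48 for Cxcl2, and their means 0.79 and 0.18. For each gene the treated eye was higher in 5 of 8 mice.

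Cxcl5, the third of the Cxcr2 ligands, was between 0.511 and 4.51 CPM in IL1A+TNF retinas (median 1.09) and between 0.118 and 13 CPM in PBS retinas (median 0.842). Its groups overlapped throughout, and its log2 fold change of 0.31 (SE 0.50) had an FDR of 0.627. The Cxcr2 ligands and their paralog Cxcl3 share sequence, and reads could be split between Cxcl1, Cxcl2 and Cxcl3 in the counting, so their single values are less certain than those of the other members.

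Cxcl13, the B cell attractant, gave the smallest FDR of the members after IL1A+TNF. The treated retinas were at 2.32, 2.47, 2.46, 1.62, 1.94, 1.42, 1.6, 1.43, 1.25 and 2.36 CPM, and the PBS retinas ran from 0.538 through 1.17 to 2.03 CPM. All 10 were above the PBS median and 4 were above every PBS retina. The log2 fold change was 0.64 (SE 0.14, FDR = 0.000147), a fold of 1.55. It was 0.62 in edgeR (FDR = 0.000541) and 0.46 with mouse as a fixed block (FDR = 0.0897).

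Cxcl16 was raised by a smaller fold and with less spread. The treated retinas were at 12, 12.1, 15.9, 17.0, 15.4, 15.2, 16.7, 16.5, 16.2 and 15.5 CPM against 10.1, 12.3 and 16.5 CPM for the lowest, median and highest PBS retina. Of the 10, 8 were above the PBS median and 2 above every PBS retina, and the log2 fold change was 0.25 (SE 0.07, FDR = 0.00146), a fold of 1.19. Zmynd15, whose exons overlap Cxcl16 on the other strand, also had a higher median in the treated group (3.86 CPM, against 2.75 CPM in PBS retinas), and its part in the Cxcl16 reads was not tested.

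Of the interferon-type members, Cxcl10 did not pass and Cxcl9 could not be tested. Cxcl10 had a median of 1.18 CPM after IL1A+TNF (0.481 to 2.58) and 1.17 CPM after PBS (0.213 to 5.05), with a log2 fold change of -0.08 (SE 0.37, FDR = 0.877). Cxcl9 was at 0 in 3 of 10 treated and 21 of 31 PBS retinas, with highest levels of 0.349 and 0.248 CPM. Cxcl12, the homeostatic member, ran from 22.7 through 31.8 to 49.1 CPM after IL1A+TNF and from 26.5 through 33.6 to 51.9 CPM after PBS. On the log2 scale it differed by -0.19 (SE 0.09, FDR = 0.0526), and it passed the threshold in the model without sex (FDR = 0.0431) and in the joint fit of batch 1 (FDR = 0.0417). It also passed without the retina of mouse 59734 (FDR = 0.0267), 60212 (FDR = 0.00646) or 60780 (FDR = 0.0409).

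**Figure D2:**
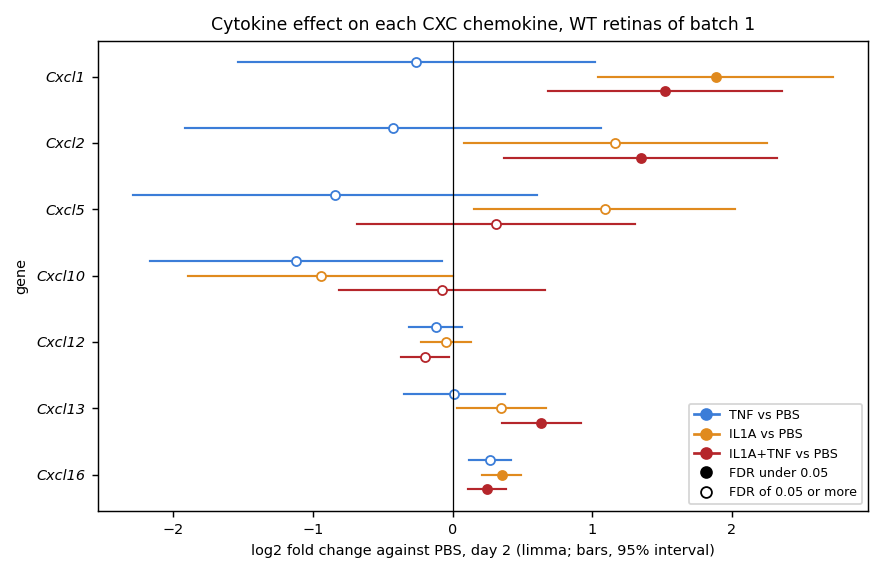
Log2 fold change of the CXC chemokines against PBS at day 2 in WT retinas of batch 1 after TNF, IL1A and IL1A+TNF, with 95% intervals from limma. Filled points have an FDR under 0.05: Cxcl1 and Cxcl16 after IL1A, and Cxcl1, Cxcl2, Cxcl13 and Cxcl16 after IL1A+TNF.

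The receptors of the members were also measured after IL1A+TNF. Of 8 receptor genes tested, 3 rose and 1 fell. Cxcr2, the receptor of Cxcl1, Cxcl2 and Cxcl5 on neutrophils, was between 12.8 and 116.0 CPM (median 20.9) against 0.0731 to 16.4 CPM (median 2.03) after PBS, a fold of 13.8 (log2 fold change 3.78, SE 0.39, FDR = 3.53e-12). Cxcr4, the receptor of Cxcl12, rose by 3.21 on the log2 scale (SE 0.21, median 23 CPM against 2.05 CPM). Cxcr3, the receptor of Cxcl9 and Cxcl10, rose by 2.97 (SE 0.34), from a median of 0.0252 CPM to 0.3 CPM. Ackr1, an atypical receptor that binds inflammatory chemokines without signaling, was the receptor that fell, by 0.13 (SE 0.05, FDR = 0.02). Cxcr5 (0.09, FDR = 0.495), Cxcr6 (-0.26, FDR = 0.321) and Ackr3 (-0.20, FDR = 0.296), the receptors of Cxcl13, Cxcl16 and, with Cxcr4, Cxcl12, did not pass the test, nor did Ackr4.

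Of the 4 other CXC chemokines tested, Pf4 rose by 2.46 on the log2 scale (SE 0.29) and Cxcl14 fell by 0.33 (SE 0.07), while Cxcl3 (0.10) and Ppbp (-0.68) did not pass. All 7 proteases that cut or shed CXC chemokines changed. Mmp8 (log2 fold change 2.46), Mmp9 (2.30), Mmp12 (2.25), Adam17 (0.36), Mmp2 (0.28) and Adam10 (0.25) rose, and Dpp4, which truncates Cxcl10 and Cxcl12, fell by 0.68 (SE 0.21). Against the same background of 50.4% called, 2 of 4 other chemokines, 4 of 8 receptors and 7 of 7 proteases were called.

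Markers of leukocytes moved with this comparison, where 50.4% of all genes were called. Against that share, 2 of 5 T cell markers was not an excess and 6 of 9 neutrophil markers was not far above it. Of 9 neutrophil markers tested, 6 rose, and their summed level was 122 to 799 CPM after IL1A+TNF (median 193) against 2.96 to 130 CPM after PBS (median 15.6). Ly6g, a defining neutrophil marker, stayed at or near 0, with 6 of 10 treated and 25 of 31 PBS retinas at 0 and none above 0.126 CPM. All 6 monocyte markers rose (summed 45.8 to 106 CPM against 2.77 to 23.2 CPM), and of 6 microglial markers 3 rose and 2 fell (summed 115 to 169 CPM against 61.9 to 104 CPM). Of 5 T cell markers tested, 2 rose (summed 2.16 to 4.54 CPM against 1.32 to 3.3 CPM), and 4 of 5 rod markers fell. The part of these cells in the levels of the members was not tested.

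IL1A alone was asked next. Cxcl1 and Cxcl16 rose, 2 of the 7 members tested, where 21.4% of all genes were called. The 9 IL1A retinas held Cxcl1 at 3.63, 3.96, 1.84, 0.687, 1.89, 1.73, 0.525, 1.28 and 2.09 CPM. All 9 were above the PBS median of 0.282 CPM and 3 PBS retinas were above all of them, with a log2 fold change of 1.89 (SE 0.42, FDR = 0.000485). This call was lost in edgeR (0.67, FDR = 0.429), in DESeq2 (0.67, FDR = 0.467) and with mouse as a fixed block (0.47, FDR = 0.739). Cxcl16 was at 13.1, 15.7 and 21.6 CPM for the lowest, median and highest IL1A retina, 3 of 9 retinas were above every PBS retina, and its log2 fold change was 0.35 (SE 0.07, FDR = 8.25e-05).

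The remaining members did not pass after IL1A. Cxcl5 had a median of 2.14 CPM (0.675 to 8.44) and a log2 fold change of 1.09 (SE 0.47, FDR = 0.0885), and it passed without the retina of mouse 60588 (1.28, FDR = 0.0395). Cxcl2 had a log2 fold change of 1.17 (SE 0.54, FDR = 0.124), Cxcl13 of 0.35 (SE 0.16, FDR = 0.11), Cxcl10 of -0.94 (FDR = 0.162) and Cxcl12 of -0.05. Cxcl9 was at 0 in 4 of 9 retinas, and its highest level was 0.369 CPM. Cxcr2 (log2 fold change 3.59), Cxcr4 (2.68) and Cxcr3 (2.58) rose here too, and Ackr1 was at 0.01. Pf4 rose (1.68), Cxcl14 fell by 0.30, and 6 of 7 proteases rose, with Dpp4 at -0.04. Of all genes, 21.4% were called in this comparison. Neutrophil markers summed to 63.4 to 385 CPM (median 159), and 7 of 9 rose. So did 5 of 6 monocyte markers (summed 16.7 to 77.3 CPM), 4 of 6 microglial markers (99.5 to 152 CPM), 5 of 5 endothelial markers (101 to 143 CPM), 1 of 5 T cell and 1 of 3 B cell markers, and 4 of 5 rod, 2 of 5 Mueller glia and 3 of 5 pigment epithelium markers fell. The part of these cells in the levels of Cxcl1 and Cxcl16 was not tested.

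After TNF alone no member passed, where 0.655% of all genes were called. At an unadjusted p under 0.05 there were 2, Cxcl16 and Cxcl10, and edgeR and DESeq2 each called 1, Cxcl16. The TNF retinas held Cxcl16 at 9.57, 14.6 and 18.4 CPM (lowest, median, highest), 7 of 8 were above the PBS median, and the log2 fold change was 0.27 (SE 0.08, p = 0.000679, FDR = 0.0776). It passed in edgeR (FDR = 0.0343), in DESeq2 (FDR = 0.0228) and in the joint fit of batch 1 (FDR = 0.0401). The TNF eye of mouse 60584 stood apart, with the lowest Cxcl16 and with monocyte and microglial markers (summed 1.54 and 56.5 CPM) below every PBS retina of day 2, while the PBS eye of that mouse had the most Cxcl16 (16.5 CPM) and monocyte markers (23.2 CPM) of the PBS group. Without both eyes, a choice made after seeing the data, Cxcl16 passed (0.35, FDR = 0.000294), as it did without the TNF eye alone (0.33, FDR = 0.00142). Cxcl10 had a log2 fold change of -1.12 (SE 0.52, FDR = 0.6), with 0.101 to 1.31 CPM (median 0.708). Cxcl1 was at 0.31, 0.471, 0.23, 0.291, 0.514, 0.123, 0.557 and 0.39 CPM, inside the PBS range, and its log2 fold change was -0.26. Cxcl2 (-0.43), Cxcl5 (-0.84), Cxcl12 (-0.12) and Cxcl13 (0.01) did not pass either. With mouse as a fixed block, the values of Cxcl1 (1.1, FDR = 0.875), Cxcl2 (0.404, FDR = 0.967) and Cxcl5 (0.472, FDR = 0.955) turned positive and none passed. No receptor, protease, other CXC chemokine or neutrophil marker was called. Cxcr4 (1.06, FDR = 0.0829) and Cxcr3 (1.27, FDR = 0.311) were the receptors with an unadjusted p under 0.05, and neutrophil markers summed to 3.14 to 48.3 CPM (median 21). Among markers of other cells, 2 of 6 microglial markers were called higher (summed 56.5 to 138 CPM, median 117, against a PBS median of 81.8 CPM) and 1 of 5 pigment epithelium markers lower. No monocyte marker was called, but their sum had a median of 40.3 CPM (1.54 to 61.2) against 8.51 CPM after PBS. The part of these cells in the level of Cxcl16 was not tested.

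The treatments were then compared directly. Cxcl1 was higher after IL1A+TNF than after TNF in all 10 against all 8 retinas, without overlap (ratio of medians 3.79), with a log2 difference of 1.78 (SE 0.68, FDR = 0.0318). That call was lost in edgeR (1.89, FDR = 0.0522), without the TNF retina of mouse 60584 (1.60, FDR = 0.0657) and without both eyes of that mouse (1.59, FDR = 0.069). Cxcl13 was also higher after IL1A+TNF than after TNF (0.62, SE 0.20, FDR = 0.0111). Cxcl2 had a log2 difference of 1.77 there (FDR = 0.0723) and passed in edgeR (FDR = 0.0476) and DESeq2 (FDR = 0.0238). The members called were 2 of 7, where 39% of all genes were. Between IL1A and TNF, Cxcl1 alone passed (2.15, SE 0.68, FDR = 0.0354), 1 of 7 where 9.08% of all genes did. It did not pass in edgeR (2.34, FDR = 0.0542), nor without any one of the TNF retinas of mice 59733, 59897, 60033, 60584 and 60639 (highest FDR 0.0886) or without both eyes of mouse 60584 (1.97, FDR = 0.0898). Of the 9 IL1A retinas, 8 were above all TNF retinas (ratio of medians 5.25).

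Between IL1A+TNF and IL1A, no member was called by limma, edgeR or DESeq2 and none had an unadjusted p under 0.05, where limma called 10.1% of all genes. The log2 differences furthest from 0 were 0.87 for Cxcl10 (SE 0.55, FDR = 0.345) and -0.78 for Cxcl5 (SE 0.57, FDR = 0.429), followed by -0.36 for Cxcl1 and 0.29 for Cxcl13. A departure from additivity, the effect of both cytokines minus the sum of the single effects on the log2 scale, was called for Cxcl16 (-0.37, SE 0.11, FDR = 0.046), 1 of 7 members where 3.6% of all genes were called. Cxcl16 thus reached about the same medians after TNF (14.6 CPM), IL1A (15.7 CPM) and both (15.7 CPM). The call was lost with a filter on the total count (FDR = 0.0629) and without any one of 7 of the 8 TNF retinas (-0.30 to -0.38), and it was kept without both eyes of mouse 60584 (-0.45, FDR = 0.0054). Cxcl10 had a departure of 1.99 (SE 0.76, p = 0.0116, FDR = 0.136).

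The eyes of a mouse were also set side by side, since a paired mouse holds its own control. Cxcl16 was higher in the treated eye in 8 of 8 mice after IL1A+TNF (log2 differences 0.23 to 0.63, median 0.44), in 7 of 7 after IL1A (0.17 to 1.05, median 0.42) and in 7 of 8 after TNF (-0.79 to 0.65, median 0.29). Cxcl13 was higher in 8 of 8 after IL1A+TNF (0.06 to 1.09), in 3 of 7 after IL1A and in 6 of 8 after TNF. Cxcl12 was lower in the TNF eye in 7 of 8 mice (-0.46 to 0.08, median -0.19; fixed mouse block -0.185, FDR = 0.659). Cxcr2 was higher in 8 of 8 after IL1A+TNF (1.33 to 5.51), 7 of 7 after IL1A and 5 of 8 after TNF (-5.31 to 4.81, median 2.0).

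Cxcl1 did not follow one direction within mice. It was higher in the IL1A+TNF eye in 5 of 8 mice (-2.81 to 3.19, median 1.42), in the IL1A eye in 4 of 7 (-1.49 to 4.28) and in the TNF eye in 7 of 8 (-0.95 to 1.96, median 1.02). In the IL1A+TNF mice where it was lower, the PBS eye was the high one. Mouse 60780 had 9.34 CPM in its PBS eye and 1.29 CPM in its treated eye, mouse 60212 had 4.72 and 1.36 CPM, and mouse 60214 had 2.62 and 2.26 CPM. Cxcl2 was higher in the treated eye in 5 of 8 IL1A+TNF mice, 4 of 7 IL1A mice and 6 of 8 TNF mice, and Cxcl10 in 2 of 8, 3 of 7 and 2 of 8.

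**Figure D3:**
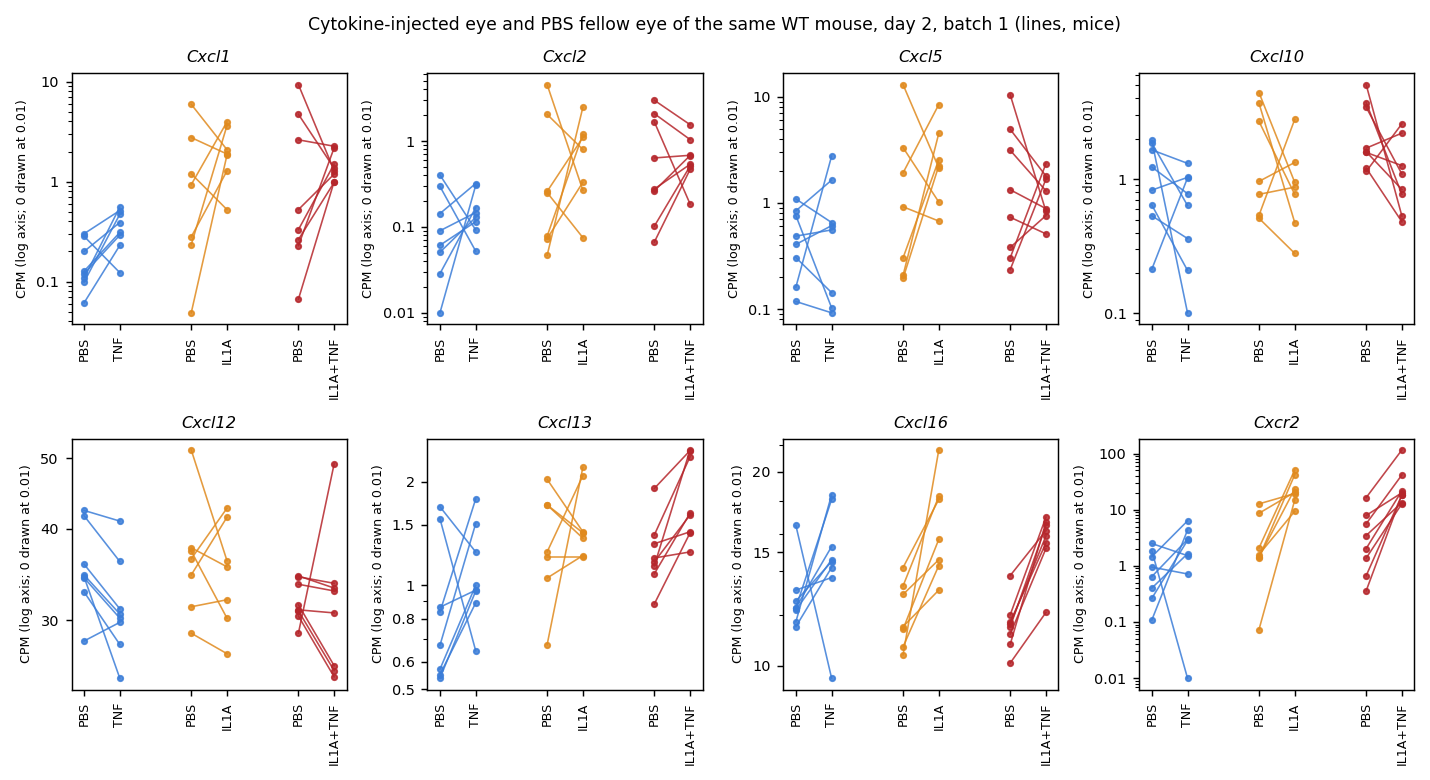
Treated eye and PBS eye of the same WT mouse at day 2 in batch 1, in CPM on a log axis, 1 line a mouse, for 7 CXC chemokines and Cxcr2. Cxcl16 and Cxcr2 were higher in the treated eye of all 8 IL1A+TNF and all 7 IL1A mice, and the lines of Cxcl1 ran both ways.

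PBS eyes were therefore described by what the other eye had received. Cxcl1 in PBS eyes was 0.0612 to 0.301 CPM (median 0.123, n = 8) where the other eye had TNF, 0.0487 to 5.94 CPM (median 0.932, n = 7) where it had IL1A, 0.0666 to 9.34 CPM (median 0.428, n = 8) where it had IL1A+TNF, and 0.113 to 2.48 CPM (median 0.434, n = 8) where the other eye was not sequenced. The 6 PBS retinas with the most Cxcl1 (2.48 to 9.34 CPM) had an IL1A+TNF eye opposite in 3 mice and an IL1A eye in 2, and the sixth had no sequenced partner. In PBS eyes opposite IL1A+TNF against those opposite TNF, limma gave log2 differences of 2.41 for Cxcl1 (SE 1.14, unadjusted p = 0.0447), 2.42 for Cxcl2 (unadjusted p = 0.037), 1.21 for Cxcl10 (unadjusted p = 0.0265), 0.53 for Cxcl13 (unadjusted p = 0.0403) and -0.17 for Cxcl12 (unadjusted p = 0.0443). None of the 7 members passed (FDR = 0.916 for these 5), edgeR and DESeq2 called none, and limma called 0% of all genes. Neutrophil markers were also highest in some of these eyes, with 130 CPM in the PBS eye of mouse 60212, 97.1 CPM in that of mouse 60641 and 51.3 CPM in that of mouse 60780.

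Across the 31 PBS retinas of day 2, the Cxcr2 ligands varied together. Pearson's r of log2 CPM was 0.842 between Cxcl1 and Cxcl2, 0.849 between Cxcl1 and Cxcl5 and 0.731 between Cxcl2 and Cxcl5. Among neutrophil genes, Cxcl1 had r = 0.777 with S100a9, 0.767 with S100a8, 0.669 with Cxcr2 and 0.551 with Csf3r. Among members, it had 0.382 with Cxcl13, 0.317 with Cxcl10, 0.121 with Cxcl12 and 0.0592 with Cxcl16. These values describe 31 retinas that share a batch and, for Cxcl1 and Cxcl2, possibly reads, and they carry no test.

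Over all 58 retinas of day 2 in batch 1, the genes whose log2 CPM followed each member most closely differed by member, and r is again a description in which treatment is shared. For Cxcl1 they were Ccl2 (0.922), Ptx3 (0.837) and Selp (0.833). For Cxcl2 they were Retnlg (0.811), Cxcl1 (0.81) and Acod1 (0.803), and for Cxcl5 Cxcl1 (0.8), Ccl2 (0.78) and Angptl4 (0.745). Cxcl16 was followed by Cx3cr1 (0.832), Ly86 (0.809) and Cd74 (0.793), genes of microglia and antigen presentation. Cxcl13 was followed by S100a10 (0.767), Gadd45b (0.756) and S100a13 (0.753), Cxcl10 by Ccl12 (0.626), Lif (0.624) and Slc1a4 (0.612), and Cxcl12 by Gm11560 (0.649), Pdha1 (0.648) and mt-Co3 (0.625).

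**Figure D4:**
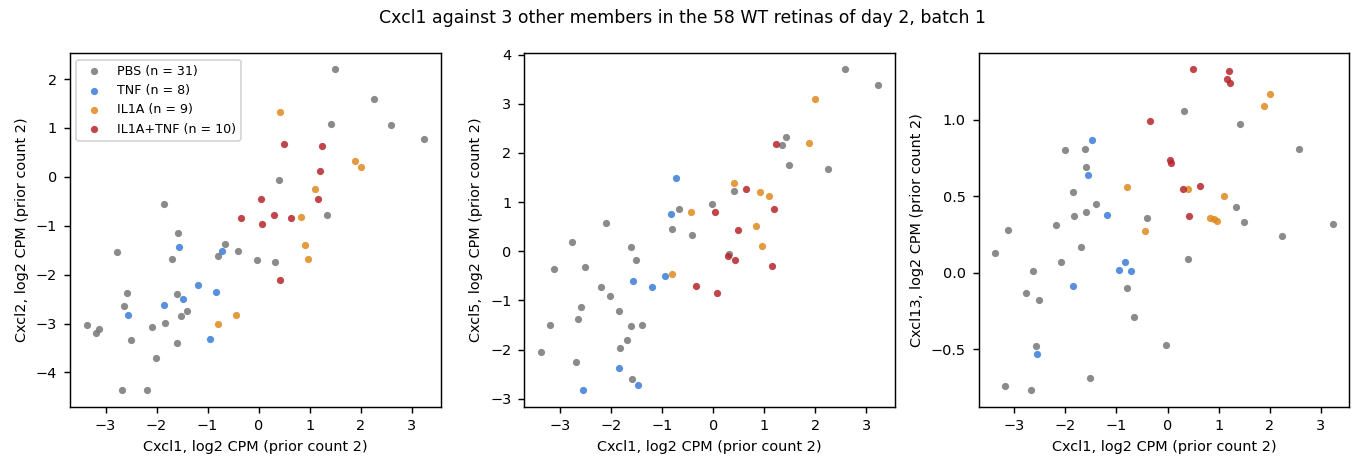
Log2 CPM of Cxcl1 against Cxcl2, Cxcl5 and Cxcl13 over the 58 WT retinas of day 2 in batch 1, 1 point a retina, by treatment. Pearson's r was 0.81 with Cxcl2, 0.8 with Cxcl5 and 0.515 with Cxcl13, and several PBS retinas lay at the high end of the first 2 panels.

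PBS retinas were compared over the 3 days, which asks what level the members had at later days after an injection. Of 7 members tested, 5 changed over days 2, 14 and 35 (limma F test), where 36.2% of all genes did: Cxcl1 (FDR = 0.0195), Cxcl2 (FDR = 0.000994), Cxcl5 (FDR = 0.00333), Cxcl10 (FDR = 0.000977) and Cxcl16 (FDR = 5.03e-06). Cxcl12 (FDR = 0.198) and Cxcl13 (FDR = 0.303) did not pass. Mice of days 14 and 35 had received TNF or PBS only, whereas 15 PBS retinas of day 2 lay opposite an IL1A or IL1A+TNF eye. For another 8 PBS retinas of day 2 the opposite eye was not sequenced, and what it received is not in the labels. Day and the opposite eye cannot be told apart for any of these. The 7 PBS retinas of day 14 came from 6 mice, since both eyes of mouse 59710 received PBS, and leaving out either eye, a choice made after seeing the data, left the same 5 members called.

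At day 35, Cxcl5, Cxcl10 and Cxcl16 did not overlap with day 2, and the share of all genes without overlap was not counted. Cxcl10 was 0 to 0.0799 CPM (median 0.0542) against 0.213 to 5.05 CPM at day 2, and its log2 difference was -4.43 (SE 1.11, FDR = 0.00166). Cxcl5 was at 0 in 4 of 6 retinas (highest 0.0776 CPM, against a lowest of 0.118 CPM at day 2; -5.32, SE 1.51, FDR = 0.00509). Cxcl16 was 7.77 to 9.99 CPM (median 8.88) against 10.1 to 16.5 CPM (-0.41, SE 0.07, FDR = 1.04e-05). Cxcl1 also fell, to 0 to 0.0797 CPM (-3.70, SE 1.34, FDR = 0.0289). Cxcl2 was at 0 in all 6 retinas, which allows at most 0.013 CPM over the group and makes it at least 48.6-fold lower than the pooled 0.634 CPM of day 2 (FDR = 0.00443). That pooled level includes PBS eyes opposite IL1A with up to 4.53 CPM of Cxcl2. The 8 PBS eyes opposite TNF at day 2 had a median of 0.0757 CPM (mean 0.134), so the bound against those is smaller. The members that fell were 5 of 7, where 32.8% of all genes were called in either direction.

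At day 14, Cxcl2 (-3.73, FDR = 0.00933), Cxcl5 (-3.70, FDR = 0.0423), Cxcl10 (-2.0, FDR = 0.025) and Cxcl16 (-0.25, FDR = 0.00389) were lower than at day 2, 4 of 7 members where 19.2% of all genes were called. Without one eye of mouse 59710 the call of Cxcl5 was lost (-3.97, FDR = 0.064 without the left and -3.83, FDR = 0.069 without the right eye), and the other 3 were kept. Cxcl1 was at 0 to 0.136 CPM (median 0.0651), and its log2 difference of -3.04 had an FDR of 0.0778. Between days 35 and 14 limma called no member and none had an unadjusted p under 0.05, where 4.25% of all genes were called, and Cxcl10 had a log2 difference of -2.42 (SE 1.24, FDR = 0.277). The neutrophil markers of PBS retinas summed to 1.43 to 3.75 CPM at day 14 and 1.61 to 2.25 CPM at day 35, against 2.96 to 130 CPM at day 2. Microglial markers summed to 45.8 to 54.7 CPM and 33.9 to 42.1 CPM, below the day 2 range of 61.9 to 104 CPM.

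TNF was followed to days 14 and 35. No member was called at either day by limma, edgeR or DESeq2, where limma called 0% of all genes at both. At day 14, 1 of 4 members tested had an unadjusted p under 0.05, Cxcl10. It was at 0.419, 3.22, 0.569, 0.866, 0.351 and 0.281 CPM in the TNF retinas and at 0.137, 0.233, 0.861, 0.115, 0.879, 0.274 and 0.136 CPM in the PBS retinas. All 6 TNF retinas were above the PBS median, the groups overlapped, and the log2 difference was 1.56 (SE 0.57, p = 0.0143, FDR = 0.888). In the 4 mice with both eyes, Cxcl10 was higher in the TNF eye each time (0.31 to 1.92). Cxcl12 (0.03), Cxcl13 (0.11) and Cxcl16 (0.00) did not pass.

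At day 35, 3 members could be tested and none had an unadjusted p under 0.05. Cxcl13 was lower in the TNF eye in 6 of 6 mice (-1.08 to -0.01, median -0.74), with 0.421 to 1.27 CPM (median 0.724) in TNF retinas and 0.743 to 1.27 CPM (median 1.06) in PBS retinas, and its log2 difference of -0.42 (SE 0.21) had p = 0.0531 and FDR = 0.889. The change in the TNF effect from day 2 was not called for any of 7 members in limma, edgeR or DESeq2. For day 14 minus day 2, limma called 0% of all genes, and Cxcl10 had a difference of 2.33 (SE 0.93, p = 0.0141, FDR = 0.999), the only member with an unadjusted p under 0.05. For day 35 minus day 2 it called 0% as well, with none of the members at an unadjusted p under 0.05. Cxcl1, Cxcl2 and Cxcl5 were at or near 0 after TNF too, with highest levels at these days of 0.217, 0.148 and 0.271 CPM.

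The IL1A+TNF comparison was repeated in WT mice of batch 2. There Cxcl1 was at 2.32, 2.12, 3.66, 1.69, 2.45 and 2.66 CPM after IL1A+TNF and at 1.01, 0.444, 0.303, 0.618 and 0.574 CPM after PBS, without overlap (ratio of medians 4.16). Cxcl13 (1.54 to 2.58 CPM against 0.7 to 1.37 CPM) and Cxcl16 (15.3 to 19.2 CPM against 12.1 to 14.1 CPM) did not overlap either, and Cxcl2 had 5 of 6 treated retinas above every PBS retina (ratio of medians 11.9). The share of all genes that separated these groups in the same way was not counted. All 5 mice with both eyes had more Cxcl1, Cxcl2, Cxcl5, Cxcl13 and Cxcl16 in the treated eye. In limma on batch 2 alone, Cxcl16 passed (0.37, SE 0.12, FDR = 0.038), 1 of 7 members where 20.9% of all genes did, and Cxcl1 (1.88, FDR = 0.128), Cxcl2 (3.62, FDR = 0.116) and Cxcl13 (0.93, FDR = 0.133) did not. In the fit of both batches with a batch term, 4 members rose and 1 fell of 8, where 54.8% of all genes were called. The log2 fold changes were 1.65 for Cxcl1 (SE 0.41, FDR = 0.000471), 1.92 for Cxcl2 (SE 0.56, FDR = 0.00273), 0.72 for Cxcl13 (SE 0.16, FDR = 6.86e-05), 0.29 for Cxcl16 (SE 0.06, FDR = 3.03e-05) and -0.21 for Cxcl12 (SE 0.08, FDR = 0.0228).

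In edgeR, the calls of Cxcl1 (0.68, FDR = 0.209) and Cxcl2 (0.98, FDR = 0.125) were lost in this fit, and so they were in DESeq2 (0.70 and 1.01). Cxcl9, tested here, had a log2 fold change of 1.07 (FDR = 0.0807) in limma and of 1.34 in edgeR (FDR = 0.0329). A difference in the IL1A+TNF effect between the batches was not called for any of 8 members in limma, edgeR or DESeq2. This does not show that the effects were equal. In limma 0% of all genes were called and no member had an unadjusted p under 0.05, the largest difference being 2.23 for Cxcl2 (SE 1.45). Neutrophil markers summed to 156 to 703 CPM after IL1A+TNF in batch 2 and 6.62 to 22.1 CPM after PBS.

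Sarm1-/- retinas were checked first for Sarm1 itself. Sarm1 RNA was present but lower, at 37.4 to 53.2 CPM in Sarm1-/- PBS retinas and 28.8 to 46.5 CPM in Sarm1-/- IL1A+TNF retinas, against 107 to 124 CPM and 87.3 to 114 CPM in the WT retinas of the batch, without overlap. The genotype labels and the levels went together in all 23 retinas. Of the 6 Sarm1-/- IL1A+TNF retinas, those of mice 61924 and 61926 (left eyes) stood apart, and results that rest on them are given with and without both, a choice made after seeing the data.

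After IL1A+TNF in Sarm1-/- mice, the 6 retinas held Cxcl1 at 8.05, 1.14, 4.28, 18.1, 21.3 and 2.7 CPM, in the order of mice 61561, 61564, 61765, 61924, 61926 and 62221. Their PBS eyes held 5.58, 2.63, 1.91, 1.27, 1.13 and 0.399 CPM in the same order. Cxcl1 was higher in the treated eye in 5 of 6 mice, the groups overlapped, and the log2 fold change was 1.83 (SE 0.59, FDR = 0.00852). In the same retinas Cxcl2 was at 1.51, 6.99, 4.02, 25.7, 38.3 and 3.98 CPM after IL1A+TNF and at 6.35, 2.36, 0.105, 0.201, 0.651 and 0.513 CPM after PBS. On the log2 scale it rose by 3.39 (SE 0.82, FDR = 0.000479). These were the 2 members of 8 called, where 43.5% of all genes were. Without both retinas that stood apart, Cxcl1 was at 0.95 (FDR = 0.281) and Cxcl2 at 2.21 (FDR = 0.032). With mouse as a fixed block, fitted only on batch 2 mice with both eyes, Cxcl1 was at 1.94 (FDR = 0.0409) and the call of Cxcl2 was lost (3.05, FDR = 0.0508). Higher after IL1A+TNF were also 6 of 9 neutrophil, 3 of 6 monocyte, 2 of 6 microglial, 2 of 5 endothelial, 3 of 5 erythrocyte and 1 of 6 T cell markers, while 4 of 5 Mueller glia, 4 of 5 rod and 1 of 5 pigment epithelium markers were lower. Neutrophil markers summed to 103 to 699 CPM (median 295) after IL1A+TNF against a median of 18.1 CPM after PBS, and their part in the levels was not tested.

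Cxcl13 (-0.29), Cxcl16 (-0.02) and Cxcl5 (0.21) did not pass in Sarm1-/- mice, and Cxcl13 and Cxcl16 were each higher in the treated eye in 4 of 6 mice. The receptors Cxcr2 (log2 fold change 3.69), Cxcr4 (2.81), Cxcr3 (2.54) and Cxcr1 (2.29) rose and Ackr1 (-0.89) and Ackr3 (-0.71) fell. They were 6 of 9 receptors tested, where 43.5% of all genes were called. Among other CXC chemokines, Pf4 (2.33) and Cxcl3 (2.25) rose and Cxcl14 fell by 0.72.

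**Figure D5:**
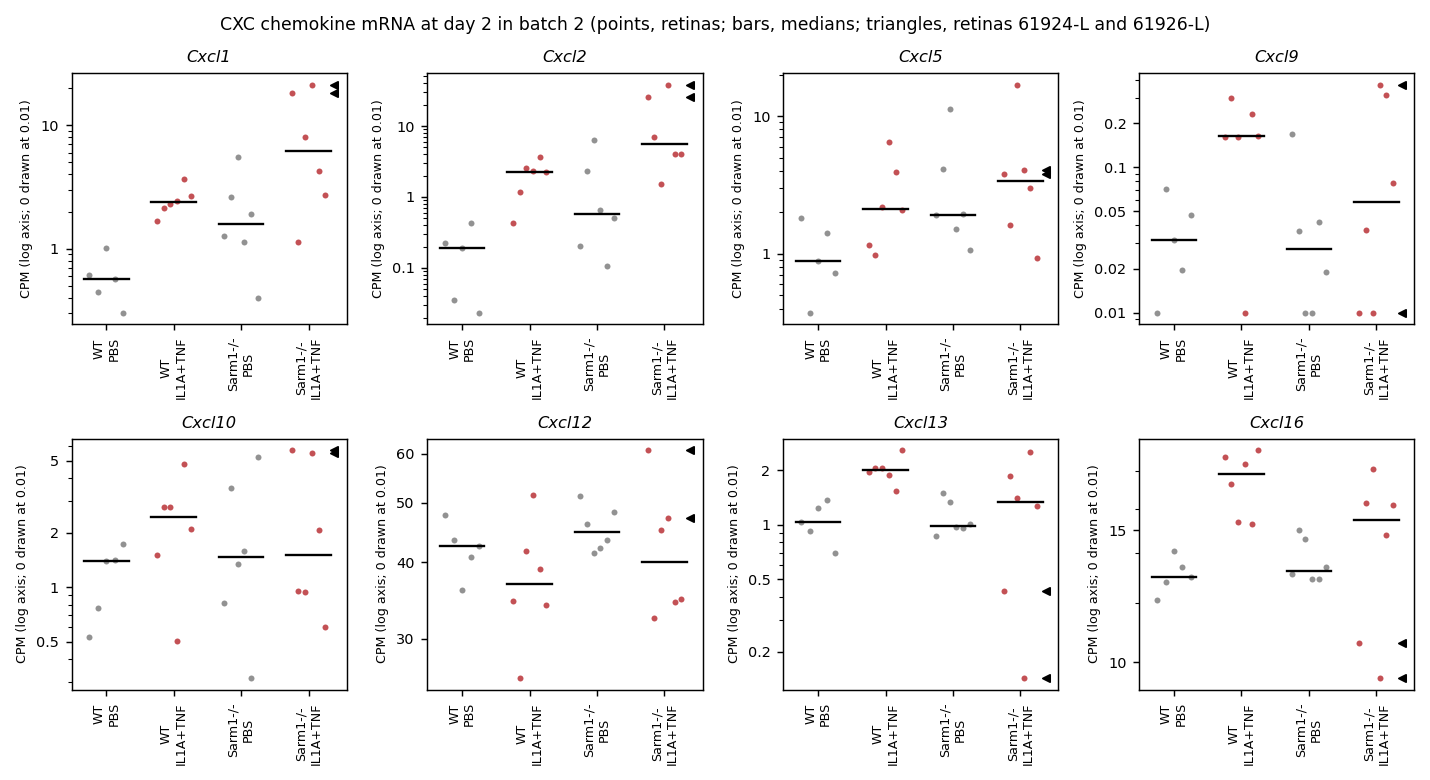
Level of the CXC chemokines in WT and Sarm1-/- retinas of batch 2 at day 2, in CPM on a log axis, by genotype and treatment, 1 point a retina, with medians as bars. Triangles mark the Sarm1-/- IL1A+TNF retinas of mice 61924 and 61926, which held the most Cxcl1 and Cxcl2 and the least Cxcl13 of their group.

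The genotypes were compared directly. In PBS retinas no member of 8 was called in limma, edgeR or DESeq2, where limma called 0.0397% of all genes. At an unadjusted p under 0.05 there was 1, Cxcl1 (1.24, SE 0.61, p = 0.0452, FDR = 0.989), with 0.399 to 5.58 CPM in Sarm1-/- and 0.303 to 1.01 CPM in WT retinas. The PBS eyes of mice 61561 and 61564, with 5.58 and 2.63 CPM, also held neutrophil markers at 102 CPM or more, where the group's median was 18.1 CPM.

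After IL1A+TNF, 4 of 8 members differed between the genotypes, where 14.8% of all genes were called. Cxcl1 (1.43, SE 0.51, FDR = 0.0477) and Cxcl2 (2.50, SE 0.67, FDR = 0.00838) were higher in Sarm1-/- retinas, and Cxcl13 (-1.03, SE 0.28, FDR = 0.00818) and Cxcl16 (-0.27, SE 0.10, FDR = 0.0408) were lower. These calls rested on the retinas of mice 61924 and 61926. Cxcl13 was at 0.434 and 0.143 CPM there and at 1.41, 1.85, 2.51 and 1.26 CPM in the other 4, against 1.54 to 2.58 CPM in WT retinas. Cxcl16 was at 10.6 and 9.53 CPM there and at 18.1, 16.3, 14.8 and 16.2 CPM in the other 4. Without both, Cxcl1 was at 0.55 (FDR = 0.667), Cxcl2 at 1.34 (FDR = 0.283), Cxcl13 at -0.15 (FDR = 0.797) and Cxcl16 at -0.07 (FDR = 0.793). Without mouse 61924 alone the FDRs were 0.262, 0.0775, 0.114 and 0.275 in the same order, and without mouse 61926 alone 0.226, 0.0691, 0.169 and 0.287. Cxcl1 was also lost without the treated eye of mouse 61561 (1.28, FDR = 0.073) and without the sex term (1.35, FDR = 0.0724).

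With batch 2 alone, the log2 differences were 1.42, 2.12, -1.04 and -0.29 for Cxcl1, Cxcl2, Cxcl13 and Cxcl16, with FDRs of 0.243, 0.213, 0.225 and 0.218. In edgeR, Cxcl13 (-0.59, FDR = 0.167) and Cxcl16 (-0.25, FDR = 0.127) did not pass either. Markers of other cells moved with the comparison too, where limma called 14.8% of all genes in the fit of both batches. Lower in Sarm1-/- retinas were 3 of 6 microglial, 3 of 5 endothelial, 2 of 5 Mueller glia, 1 of 6 monocyte, 1 of 6 T cell and 1 of 5 pigment epithelium markers, and no neutrophil, erythrocyte or rod marker was called. Microglial markers summed to 95.1 to 146 CPM in Sarm1-/- and 150 to 190 CPM in WT retinas, and endothelial markers to 68.6 to 128 CPM and 136 to 165 CPM, both without overlap. The retinas of mice 61924 and 61926 had the most neutrophil markers of their group (699 and 652 CPM, against 103 to 354 CPM in the other 4), and WT retinas reached 703 CPM. Their erythrocyte markers summed to 99.0 and 50.4 CPM, the highest and the third of the group (19.9 to 85.2 CPM in the other 4). The part of these cells in the differences was not tested. Cxcr4 (-0.77), Ackr1 (-0.67) and Dpp4 (-1.12) were lower in Sarm1-/- retinas after IL1A+TNF.

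Whether the response to IL1A+TNF itself differed by genotype was tested as an interaction. Of 8 members, Cxcl13 passed (-1.01, SE 0.33, FDR = 0.043), where 8.75% of all genes did, and Cxcl16 did not (-0.31, SE 0.12, FDR = 0.0901). Without both retinas that stood apart, Cxcl13 was at -0.11 (FDR = 0.897), and in edgeR it was at -0.57 (FDR = 0.344). It was also lost without any one of the retinas 61561-L, 61564-R, 61722-L, 61924-L, 61926-L and 61926-R (mouse and eye). Cxcl16 passed without 61561-R (-0.40, FDR = 0.0153), 61564-L (-0.35) or 62221-R (-0.35).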

How the data were processed

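Whole retinas were used for poly(A) RNA sequencing (150 bp read pairs). Per the submitters' processing notes the authors aligned reads to mm10 with STAR 2.7.9a and counted read pairs per gene with featureCounts of Subread 2.0.1. The deposited table holds these raw counts, not normalized. The annotation release, any strand setting and how reads shared by paralogs were counted are not given in the sources used here. Groups, sex, mouse, day and batch came from the labels.

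Genes were kept by filterByExpr (minimum count 10, minimum total 15, proportion 0.7, large groups from 10). Counts were scaled by TMM and fitted with limma 3.58.1 on voom weights in R 4.3.3, in 2 rounds with duplicateCorrelation on mouse and with sex as a covariate, plus batch in the Sarm1 fit. PBS retinas over days or by fellow eye had no block. P-values were adjusted by Benjamini-Hochberg over all genes tested in a comparison, and an FDR under 0.05 is a call. P-values measure the spread between retinas. The 2 eyes of a mouse pair by design, and the estimated correlation within mice was 0.0515 at day 2, 0.284 at day 14, 0.0794 at day 35, 0.0884 in the joint fit and 0.00525 in the Sarm1 fit. CPM used the total count of a library, and log2 CPM in pairs and correlations used a prior count of 2. Intervals and limits from a count of 0 cover counting error only. Symbols and positions came from GENCODE M21 (GRCm38).

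The members and lists were chosen with earlier results of these data known. The genes named are the 8 members in every comparison, the listed receptors, proteases and other CXC chemokines, Sarm1 as a check of the labels, the 3 genes with the highest Pearson r for each tested member, and markers of other cell types. Alternatives were edgeR 4.0.16 (quasi-likelihood) and DESeq2 1.42.0 (both without a mouse block), other normalization, filters, no sex term and no block. Further ones were mouse as a fixed block, batch 1 fitted jointly over its days and batch 2 on its own. The fits with mouse as a fixed block kept only mice with 1 treated and 1 PBS eye, and for Sarm1-/- only batch 2. Single retinas were also left out in turn, from chosen groups only. No WT PBS retina of day 2 in batch 1 and no WT IL1A+TNF retina of batch 2 was left out singly. Added after seeing the data were fits without the retinas 61924-L and 61926-L, without both eyes of mouse 60584 or 1 eye of mouse 59710 (PBS in both eyes), and limma-trend without weights. The limma test was checked on simulated counts. Columns of other series numbered 0. Proteins and the Jun-deficient mice were not analysed here.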

Additional observations from a re-analysis of the deposited data

Results flagged for a closer look

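Single retinas stood far above the rest of their group in 19 of 87 pairs of a member and a group that were examined (a gap to the next retina beyond Dixon's 95% limit). Chance gives about 1 in 20 for normally distributed values. Here CPM were used untransformed and several groups were near 0, so that rate does not apply and the flags are a description. In every case it was the highest retina. Retinas are named by mouse and eye. Some came from the low groups of days 14 and 35, where a handful of counts makes the gap. These were Cxcl1 in TNF at day 35 (59730-L, 0.2 CPM), Cxcl2 in TNF at day 14 (59708-L, 0.148 CPM) and PBS at day 14 (59712-L, 0.0288 CPM), and Cxcl5 in TNF at day 35 (59731-L, 0.215 CPM) and PBS at day 35 (59895-R, 0.0776 CPM). Cxcl9 gave 4 more, in TNF at day 14 (59709-L, 0.0264 CPM), PBS at day 14 (59738-R, 0.0651 CPM), TNF at day 35 (59895-L, 0.0291 CPM) and PBS at day 35 (59736-L, 0.0266 CPM).

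Some retinas stood out for several members. In the IL1A group, 60637-L was the highest for Cxcl2 (2.47 CPM), Cxcl9 (0.369 CPM) and Cxcl10 (2.78 CPM), and 60217-R was the highest for Cxcl5 (8.44 CPM). Both eyes of the Sarm1-/- mouse 61561 were high, the PBS eye for Cxcl2 (6.35 CPM) and Cxcl5 (11.2 CPM) and the IL1A+TNF eye for Cxcl5 (16.9 CPM). The others were Cxcl5 after IL1A+TNF in WT (59734-L, 4.51 CPM), Cxcl9 in a Sarm1-/- PBS eye (61924-R, 0.168 CPM) and Cxcl10 after TNF at day 14 (59709-L, 3.22 CPM).

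Effects that differed between groups by a test of the difference were the departure from additivity of Cxcl16 (log2 difference -0.37) and the interaction of genotype and treatment for Cxcl13 (log2 difference -1.01). The first was lost without any one of 7 TNF retinas, and the second without the retinas 61924-L and 61926-L.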

How the results depend on the processing

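Counts of members called in limma moved as follows. In edgeR and DESeq2 the count fell from 4 to 2 each after IL1A+TNF and from 2 to 1 after IL1A, and rose from 0 to 1 after TNF. In edgeR it was 0 in place of 1 for IL1A against TNF, and in DESeq2 3 in place of 5 for WT IL1A+TNF in both batches. With the replicate block as a fixed mouse factor the counts were 1 in place of 4 (IL1A+TNF), 1 in place of 2 (IL1A) and 1 in place of 2 (Sarm1-/- IL1A+TNF against PBS), where the lost call was Cxcl2 (3.05, FDR = 0.0508). The called values that reversed were Cxcl1 (-0.536) and Cxcl2 (-0.467) after IL1A+TNF, and 3 values after TNF that were not called turned from -0.26 to 1.1 (Cxcl1), -0.43 to 0.404 (Cxcl2) and -0.84 to 0.472 (Cxcl5). Without the replicate block no count changed. The joint fit called 1 after TNF, and the total filter 0 for additivity in place of 1. The filter at 1 CPM called 3 in place of 5 over PBS days. For Sarm1-/- against WT after IL1A+TNF the main count of 4 became 2 in edgeR, DESeq2, the total filter and limma-trend, and 0 with batch 2 alone or without both retinas that stood apart. For genotype by treatment it was 0 in place of 1 in all 6 of these. Sarm1-/- IL1A+TNF against PBS gave 1 without both retinas and 1 in limma-trend. Limma-trend called 0 for additivity, and with a fixed mouse factor 1 after IL1A+TNF and 1 after IL1A. Without both eyes of mouse 60584 the counts were 1 in place of 0 (TNF), 1 in place of 2 (IL1A+TNF against TNF) and 0 in place of 1 (IL1A against TNF). Leaving out single retinas of the treated group, but none of PBS, gave 4 to 5 (IL1A+TNF), 2 to 3 (IL1A) and 0 to 1 (TNF). Leaving out single TNF retinas gave 1 to 2 (IL1A+TNF against TNF), 0 to 1 (IL1A against TNF) and 0 to 1 (additivity). Leaving out single Sarm1-/- IL1A+TNF retinas gave 0 to 4 (genotype after IL1A+TNF). For genotype by treatment, leaving out single Sarm1-/- or WT PBS retinas of batch 2 gave 0 to 2. Over the values and settings recorded, 1330 kept their side, 77 lost it, 21 gained it and 2 called values reversed, and the cause was not tested. Of the fits without a single retina, only those that moved a call and those with the lowest and highest value were recorded. A value called in neither fit counted as kept even where its sign turned. Depth limits Cxcl9, Cxcl1, Cxcl2 and Cxcl5 at the later days.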
